A study of Mus musculus with 4 samples.

Results

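The genes described are those of the proteins of the cytosolic ribosome, 83 of the 46517 genes in the deposited tables. They were taken by name, as rows called *Rpl* or *Rps* with a number, together with *Rplp0*, *Rplp1*, *Rplp2* and *Rpsa*, with an exon length above 0 and without rows named as pseudogenes. Of 88 names that fit, 5 had an exon length of 0 and were left out (*Rps4l*, *Rps12l1*, *Rps12l2*, *Rps3a2* and *Rps3a3*). The 83 genes comprise 51 of the large and 32 of the small subunit and lie on 19 chromosomes.

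RNA was measured in mesenchymal cells positive for PDGFRα and Sca-1 (PαS cells) from injury tissue in and around the femur of wild-type C57BL/6J mice, after 7 days of culture in osteogenic medium. The medium of the 4 conditions held neither cytokine, 10 ng ml−1 of IL-17A, 500 ng ml−1 of BMP-2, or the 2 together at these doses. IL-17A is an inflammatory cytokine made by T cells, and BMP-2 is a growth factor that drives bone formation. The cells had been sorted as negative for CD45, CD11b, Ter119, CD31 and CD34, and the number of mice pooled per library is not given in the sources used here. Mice were 6 to 8 weeks of age, and those for work on bone regeneration were female. There was 1 library per condition, so no difference between conditions has a replicate check.

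Ribosomal proteins are made in near-equal amounts, 1 copy of most of them in each ribosome, and their mRNAs are among the most abundant of a dividing cell. In mammals these mRNAs begin with a C followed by a run of pyrimidines, the 5′ terminal oligopyrimidine (TOP) motif, through which mTOR signalling controls their translation. The same genes have left very many processed pseudogenes in the mouse genome, copies of spliced mRNA without introns, so that a sequence read from a ribosomal protein mRNA often fits several places. The tables therefore matter in both of their forms, total exon reads and the exon reads unique to 1 gene.

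The start sites of these genes are shown first, since the TOP motif is the feature they are best known to share. Of the 83 genes, 63 were matched by symbol in the RefSeq promoter table (GRCm38.p6, the mm10 assembly). A C followed by at least 4 C or T lay exactly at an annotated start of 13 of them (20.6%), against 3.01% of all 27025 genes with an entry. Within 10 bases of the start, on the strand of the gene, it lay in 39 (61.9%), against 34.4% of all. Each window begins 10 bases before the start, and capitals mark the whole run of C and T around the match. The first 5 have the run at the start (*Rpl38* at chr11:114668570-114668599 on the plus strand, *Rps6* at chr4:86857348-86857377, *Rps15a* at chr7:118116128-118116157 and *Rps27* at chr3:90213629-90213658 on the minus strand, *Rpl28* at chr7:4792955-4792984 on the plus strand), *Rps7* (chr12:28635934-28635963, minus) and *Rpl36a* (chrX:134585644-134585673, plus) have one nearby, and *Rps16* (chr7:28350679-28350708, plus) and *Rpl10* (chrX:74270806-74270835, plus) have none in the window.
Rpl38: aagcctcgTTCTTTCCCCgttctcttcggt
Rps6: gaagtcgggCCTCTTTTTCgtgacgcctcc
Rps15a: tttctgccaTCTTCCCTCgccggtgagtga
Rps27: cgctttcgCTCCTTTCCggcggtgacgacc
Rpl28: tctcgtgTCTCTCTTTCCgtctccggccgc
Rps7: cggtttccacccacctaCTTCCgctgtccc
Rpl36a: cccaggcaccgcctataaaCTTCCgttgcg
Rps16: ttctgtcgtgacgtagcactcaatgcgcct
Rpl10: tacagtggaagataggccgcctatataagg
A match describes these letters only, and a window without one says nothing of the real start, since annotated starts can be some bases off.

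Exon reads numbered 4190612 to 4719412 per library, of which the ribosomal protein genes held 151269 to 184373. Mesenchymal markers were present, with 7636 to 10973 reads of *Ly6a*, which encodes Sca-1, and 739, 698, 375 and 695 of *Pdgfra* for no cytokine, IL-17A, BMP-2 and the combination. Summed over 5 such markers, the level was 3811, 3263, 3517 and 2906 CPM (counts scaled to the library size) in the same order. With both cytokines over none, 4 of the 5 were lower beyond counting error, among them *Itgb1* at 0.610 and *Cd44* at 0.694 times the level. Of the markers gated away, *Pecam1* (CD31) had 0 reads in all 4 libraries, *Ptprc* (CD45) at most 4 and *Itgam* (CD11b) at most 29, while *Cd34* had 94, 44, 12 and 0. Summed over 8 macrophage markers, the level was 166, 151, 400 and 125 CPM. The high value with BMP-2 lay in *Lyz2*, with 548, 509, 1728 and 410 reads, and over the other 7 markers the sum was 46.4, 29.9, 30.8 and 40.1 CPM. *Csf1r* was lowest with BMP-2, at 0.460 times the level without cytokine (95% counting interval 0.334 to 0.629). *Adgre1* had 24, 17, 0 and 0 reads, *Mrc1* 20, 0, 0 and 0, and *Fcgr1* none. Summed over 5 muscle markers, nearly all of it *Acta1* and *Des*, the level was 88.1, 72.3, 62.6 and 44.5 CPM, the reverse of the order of the ribosomal share given next, and *Myod1* had 0 reads. The part of these markers in the differences below was not tested, and in a bulk library more cells of a type and more RNA per cell cannot be told apart.

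The share of exon reads in ribosomal protein genes was lowest without cytokine and highest with both cytokines. It was 3.27% without cytokine (exact Clopper–Pearson 95% interval 3.25 to 3.28), 3.61% with IL-17A (3.59 to 3.63), 3.66% with BMP-2 (3.64 to 3.68) and 3.91% with both (3.89 to 3.92). The intervals do not overlap between any of the libraries. The cDNA was amplified by PCR without molecular tags, so a read is not an independent molecule, and these intervals, like all others given here, cover counting error only and not the variation between cultures.

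The order was the same in unique exon reads, where the shares of the libraries' unique reads were 2.20% (2.18 to 2.21), 2.43% (2.41 to 2.45), 2.47% (2.46 to 2.49) and 2.64% (2.63 to 2.66). Without the 5 most abundant genes the shares of total reads were 2.66%, 2.94%, 3.00% and 3.22%. Both ways of counting thus put the libraries in 1 order. As a share of summed RPKM (exon reads scaled to exon length and library size), the genes held 6.70% without cytokine and 7.50%, 7.49% and 7.54% in the other libraries, so that on this scale the libraries with cytokine lay close together. The share of intron reads among all gene reads followed the order of the exon read share, at 6.25%, 6.68%, 6.91% and 7.17%, and its part in the result was not tested.

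**Figure D1:**
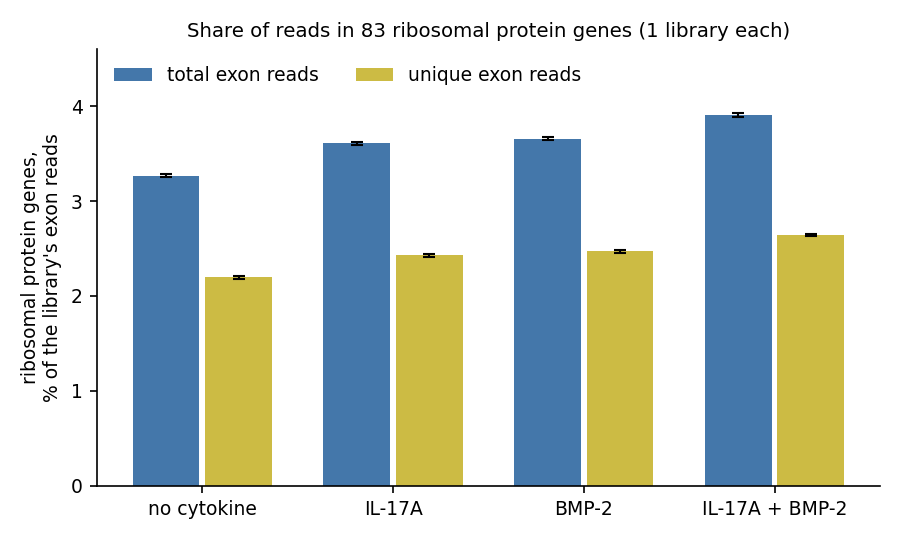
Share of each library's exon reads that fell in the 83 ribosomal protein genes (vertical axis, percent), for total and for unique exon reads in the 4 conditions, with 1 library each. Error bars are exact 95% intervals for counting error; total shares run from 3.27% without cytokine to 3.91% with both cytokines and unique shares from 2.20% to 2.64%.

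At least 10 reads on average were found for 81 of the 83 genes, and at least 500 for 77. The other 2, *Rpl3l*, a paralogue of *Rpl3* known from heart and skeletal muscle, and *Rpl10l*, a paralogue of *Rpl10* known from testis, had 0 reads in all 4 libraries, which allows up to 3 reads in each. Mean RPKM over the libraries ran from 19.6 to 1400 with a median of 190, and the SD of its log2 was 1.39. The level per length thus spread widely between genes.

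The highest level per length was that of *Rpl37a*, a zinc-binding protein of the large subunit (ENSMUSG00000046330, chromosome 1, 72711260 to 72713809 on mm10), with 1304 RPKM without cytokine, 1259 with IL-17A alone, 1612 with BMP-2 alone and 1425 with the combination. Others among the highest, by mean RPKM, were *Rpl41*, which encodes a very short peptide, at 1142, *Rplp0* at 1101, *Rplp1* at 1078, *Rps25* at 1037, *Rps7* at 946 and *Rps26* at 799. The lowest were *Rpl36a* at 19.6, *Rpl39l* at 22.2, *Rps15a* at 38.7, *Rpl12* at 39.1, *Rpl5* at 43.9, *Rpl22* at 44.4, *Rps12* at 50.6 and *Rpl27a* at 57.3. Median RPKM was 160 for 49 genes of the large subunit and 275 for 32 of the small.

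Annotated exon length went with these levels. It ran from 404 to 6262 bases with a median of 1535, and across the 81 genes, which are not independent replicates, log2 mean RPKM had a Pearson's r of −0.56 with log2 exon length, while log2 mean reads had one of 0.11. The longest exon length was that of *Rps15a*, whose RPKM was among the lowest at 1058 to 1364 reads. Between libraries the log2 RPKM of the 81 genes correlated with r = 0.963 to 0.989, so the ranking by level was largely shared. The 5 most abundant genes by reads held 18.2% of the reads of the group, and 3 of its genes were among the 100 most abundant of all.

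Reads not unique to a gene made up 39.7 to 39.9% of the exon reads of ribosomal protein genes, against 10.6 to 10.97% of all exon reads. Gene by gene the share had a median of 45.1% and ran from 0 to 100%. It was above 90% in 11 genes, above 50% in 37 and under 10% in 15. *Rps12* had no unique read in any library, with 140, 101, 107 and 125 total reads. *Rps6*, the substrate of the S6 kinases, followed at 97.6%, then *Rpl24* at 94.1%, *Rpl15* at 94.0%, *Rpl10a* at 92.7%, *Rpl28* at 92.0%, *Rpl5* at 91.5% and *Rpl27* at 91.2%. At the other end, every read of *Rpl39l* was unique. Over summed reads the share was 41.4% in the large and 37.7% in the small subunit.

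Copies elsewhere in the annotated genome went with this share. In GENCODE M21 transcripts, stretches of 50 bases from a ribosomal protein mRNA recurred in transcripts of a median of 11 other genes. Pseudogenes are counted among these other genes, and their median number was 8. The median share of such stretches that recurred was 38.3%. Of 81 genes with coding transcripts, 79 shared a stretch with at least 1 pseudogene, and *Rpl7a* did so with 121, the highest number. Across genes the share of recurring stretches had a Pearson's r of 0.45 and a Spearman's rho of 0.51 with the share of reads not unique. Reads of ribosomal protein genes were spliced in 78.6 to 80.5% of cases, against 53.1 to 53.9% of all exon reads. *Rps12*, which had no unique read, had 135 spliced reads of 140 without cytokine. Whether reads counted as spliced came from the genes or from their copies was not tested. Of the ribosomal reads assigned to genes, 0.438 to 0.484% fell in introns.

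Rows named as ribosomal pseudogenes held 195 to 251 exon reads per library over 261 rows, but only the 22 with an exon length could hold any. All reads assigned to the 261 rows were 951 to 1023 per library, and pseudogenes under other names were not counted. Of the measured genes, 22 overlapped a neighbouring gene, and these libraries do not record strand. Within the gene *Rpl13*, the overlapping *Gm20388* on the same strand held 1495, 1389, 1238 and 1617 exon reads, none of them unique, so reads of *Rpl13* (2555, 2983, 3292 and 3356 total, 397, 577, 606 and 629 unique) could have been divided between both.

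**Figure D2:**
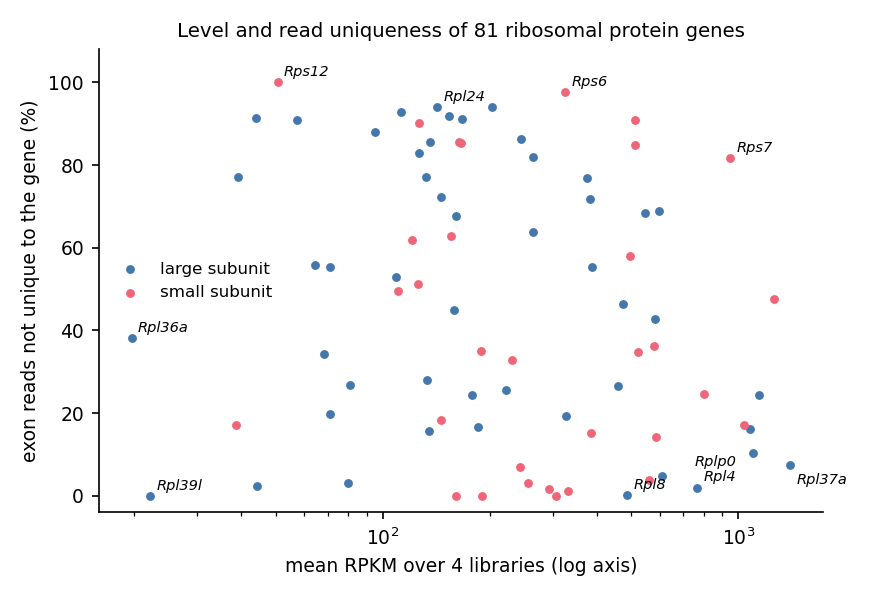
Share of exon reads not unique to the gene (vertical axis, percent) against mean RPKM over the 4 libraries (horizontal log axis), 1 point for each of 81 ribosomal protein genes, coloured by subunit. Genes with 0% and genes with over 90% occur at low and at high levels, with *Rps12* at 100% and *Rps7* at 81.7%.

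Ratios between libraries were taken from exon reads scaled by TMM, a factor from the trimmed mean of log ratios that sets the bulk of genes to no difference, and log2 ratios carry a pseudocount of 0.5 on CPM. The median ratio of the 81 ribosomal protein genes was above 1 in all 5 comparisons. It was 1.05 for IL-17A over no cytokine, 1.08 for BMP-2, 1.19 for both cytokines, 1.07 for both over BMP-2 and 1.12 for both over IL-17A. The log2 medians were 0.08, 0.11, 0.25, 0.09 and 0.17, while those of all 11352 genes with at least 10 reads on average lay at 0.00 and those of the 1859 genes with at least 500 between −0.02 and 0.00. The comparisons share libraries, so they are not 5 separate results.

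With IL-17A alone, 38 of 81 genes were higher than without cytokine beyond counting error, that is with a 95% interval above 1, and 10 were lower. Among all 11352 genes 29.8% were higher and 29.3% lower, and among the 1859 with at least 500 reads 31.6% and 37.1%. The shares of ribosomal protein genes were 46.9% and 12.3%. At least 1.5-fold higher were 4 genes, against 19% of all genes, and none was 1.5-fold lower, against 17.3%. Among the 1859 genes with at least 500 reads, 5.27% were 1.5-fold higher and 6.13% lower.

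With BMP-2 alone, 45 genes (55.6%) were higher and 6 lower, against 29.9% and 30.9% of all genes and 34.0% and 33.8% of those with at least 500 reads. A 1.5-fold difference was reached by 5 genes upwards and by none downwards, against 18.3% and 18.8% of all genes. For the genes with at least 500 reads it was 3.66% in each direction. With both cytokines, 59 genes (72.8%) were higher than without and 4 lower, against 32.0% and 33.2% of all and 36.0% and 39.9% of the more abundant genes. Here 6 genes were at least 1.5-fold higher and 1 lower, against 20.6% and 22.1% of all and 7.69% and 11.1% of the more abundant genes.

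On top of BMP-2, IL-17A left 38 genes higher than BMP-2 alone and 15 lower, against 32.9% and 33.1% of all genes. At least 1.5-fold higher were 3 and lower 4, against 21.0% and 21.9% of all and 7.42% and 9.58% of the more abundant genes. When BMP-2 was added to IL-17A, 51 genes (63.0%) were higher than with IL-17A alone and 10 lower, against 30.3% and 32.2%. At 1.5-fold, 5 were higher and 4 lower, against 18.1% and 21.5% of all genes and 5.97% and 7.80% of the more abundant. The log2 medians of the large and the small subunit were 0.25 and 0.26 for the combination and 0.10 and 0.14 for BMP-2 alone, each over none. They lay farthest apart for both over IL-17A, at 0.145 and 0.219. Across genes the ratios over none spread less than those of the more abundant genes as a whole. Their SD on the log2 scale was 0.24 with IL-17A alone, 0.23 with BMP-2 alone and 0.32 with the combination, each over none, against 0.42, 0.34 and 0.53 for the genes with at least 500 reads, and the counting error of a single gene was about 0.05.

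The counts in unique reads leaned the same way. Of 80 genes with unique reads, 28 were higher and 6 lower with IL-17A, 40 and 4 with BMP-2, 53 and 3 with both over none, 33 and 17 with both over BMP-2, and 42 and 8 with both over IL-17A. Their log2 medians were 0.08, 0.14, 0.25, 0.08 and 0.18, while those of all genes with on average 10 or more unique reads lay at 0.00. The share of all genes higher or lower in unique reads was not computed, so these counts have no such yardstick. For the 15 genes with under 10% of reads not unique, the log2 median for both cytokines over none was 0.19 in total reads, and for the 37 with over 50% it was 0.28. The verdict, higher, lower or within counting error, was the same in total and unique reads for 54 to 69 of 80 genes, depending on the comparison.

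Scaled reads were highest in the library with both cytokines for 54 of 81 genes (66.7%), against 27.8% of all 11352 genes, and lowest in that without cytokine for 45 (55.6%), against 23.6%. The library without cytokine was highest for 1 gene, against 24.4% of all. In unique reads these counts were 46 and 43 of 80, again with 1 highest without cytokine, and the shares of all genes were not computed. The 13 genes with the pyrimidine run exactly at the start had a log2 median of 0.27 for both cytokines over none. It was 0.21 for the 37 measured genes with a run within 10 bases, the 13 included, and 0.27 for the 24 without. With BMP-2 the medians of the 13, the 37 and the 24 were 0.17, 0.10 and 0.10, and with IL-17A they were 0.07, 0.06 and 0.12.

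**Figure D3:**
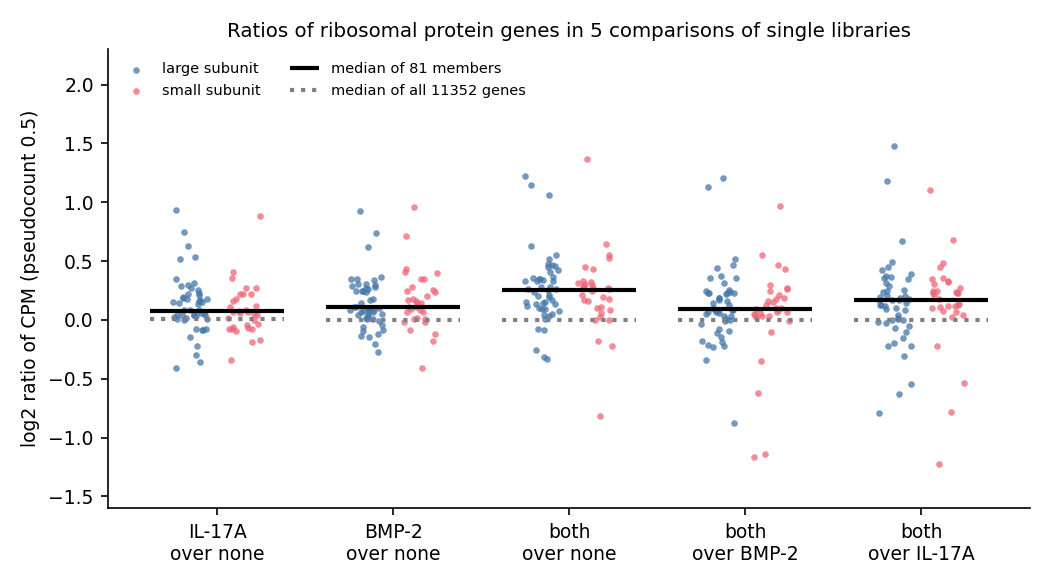
Log2 ratio of CPM (vertical axis, pseudocount 0.5) in the 5 comparisons of single libraries, 1 point per ribosomal protein gene, coloured by subunit, with the median of the 81 genes as a solid line and that of all 11352 genes as a dotted line. The median of the 81 genes lies above 0 in each, highest at 0.25 for both cytokines over none.

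The stalk proteins, which draw elongation factors to the large subunit, differed by little. *Rplp0* had 8377, 8002, 9418 and 10091 total reads for no cytokine, IL-17A, BMP-2 and the combination, in which order all further reads are given, and 7476, 7200, 8522 and 9006 unique reads. Its ratio for both cytokines over none was 1.15 (1.12 to 1.19). That of *Rplp1* was 1.21 (1.15 to 1.28) and that of *Rplp2* 1.20 (1.13 to 1.28). Reads are as deposited, and the library with IL-17A alone was the smallest, at 4190612 exon reads.

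*Rpsa*, a small subunit protein first described as the laminin receptor, had 4440, 4400, 4748 and 5515 reads, 2874, 2806, 3177 and 3598 of them unique, and a ratio of 1.19 for both over none. *Rpl5* and *Rpl11* bind the smallest ribosomal RNA of the large subunit and, outside the ribosome, the p53 regulator Mdm2. Their ratios for both over none parted, at 1.07 (0.970 to 1.18) for *Rpl5*, which was within counting error, and 1.35 (1.26 to 1.44) for *Rpl11*. *Rps6* had a ratio of 1.22 (1.15 to 1.28) in total reads, but only 44 to 74 unique reads in each library. *Rps19*, mutated in Diamond–Blackfan anaemia in humans, had a ratio of 1.12 (1.08 to 1.17).

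*Rpl38*, whose loss in mice disturbs the patterning of the skeleton, had 1016, 1334, 1267 and 1231 reads, 725, 1080, 1024 and 732 of them unique. It was highest with IL-17A alone, 1.43-fold over no cytokine (1.32 to 1.55). With both cytokines its ratio over none was 1.16 (1.06 to 1.26) in total reads and 0.967 in unique reads.

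*Rpl30*, a protein at the surface between the subunits, stood out with both cytokines (ENSMUSG00000058600, chromosome 15, 34440505 to 34443640). It had 884, 836, 961 and 2159 total and 680, 573, 710 and 1579 unique reads, so that 1 library was high and the other 3 were alike. Both over none gave 2.33 (2.16 to 2.53), and 2.22 in unique reads, while IL-17A alone gave 1.03 (0.936 to 1.13) and BMP-2 alone 1.07 (0.973 to 1.17). *Rps24*, another gene of Diamond–Blackfan anaemia in humans, had 2007, 1797, 2186 and 3286 reads and a ratio of 1.56 (1.48 to 1.65), the same to this precision in unique reads.

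*Rps16*, whose tail reaches the decoding site (ENSMUSG00000037563, chromosome 7, 28350652 to 28352696), had 423, 468, 571 and 1148 total reads but 81, 71, 93 and 129 unique reads. Both over none was 2.59 (2.32 to 2.91) in total and 1.53 (1.15 to 2.04) in unique reads. The direction was thus shared and the size was not. *Rpl36a* had the widest ratio for BMP-2 added to IL-17A, with 134, 92, 124 and 296 total and 91, 60, 75 and 173 unique reads and a ratio of 2.82 (2.23 to 3.61). In total reads it was lower with IL-17A alone than without, at 0.748 (0.567 to 0.983). In unique reads the ratio was 0.718 (0.509 to 1.005), within counting error.

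*Rpl10*, which joins the large subunit last and is needed for the subunits to join, was higher in each of the libraries with cytokine (ENSMUSG00000008682, chromosome X, 74270812 to 74273135). Total reads were 544, 958, 1054 and 1260 and unique reads 69, 123, 123 and 145. Only the library without cytokine was low. The ratios were 1.92 (1.73 to 2.14) with IL-17A, 1.90 (1.71 to 2.11) with BMP-2 and 2.21 with both, and 1.94, 1.75 and 2.01 in unique reads. *Rpl21*, mutated in a hereditary hair loss in humans, had 948, 1344, 1093 and 1316 reads and a ratio of 1.54 (1.42 to 1.68) with IL-17A. *Rpl28*, a protein of the large subunit, had 655, 679, 1113 and 1005 total but 49, 43, 83 and 102 unique reads, and a ratio of 1.67 (1.51 to 1.84) with BMP-2.

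A further set was higher with either cytokine alone than with none or with both. *Rps29*, a zinc-binding protein of the small subunit (ENSMUSG00000034892, chromosome 12, 69157722 to 69159186), had 1443, 2439, 2414 and 1615 total and 1246, 2108, 2061 and 1376 unique reads. Its ratios over none were 1.84 (1.73 to 1.97) with IL-17A, 1.64 (1.54 to 1.75) with BMP-2 and 1.07 (0.996 to 1.15) with both. *Rpl39*, which lines the exit tunnel for the new protein, had 1917, 2547, 3009 and 1678 total and 1524, 2105, 2491 and 1258 unique reads, with ratios of 1.45, 1.54 and 0.836 (0.783 to 0.894). Total and unique reads told the same for both genes.

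*Rps27*, also zinc-binding, had 510, 599, 1012 and 471 total reads and only 37, 97, 99 and 24 unique reads. Its ratios over none were 1.28 (1.14 to 1.44), 1.95 (1.75 to 2.17) and 0.883 (0.777 to 1.00). In unique reads both cytokines gave 0.237 times the level with BMP-2 alone, against 0.453 (0.405 to 0.506) in total reads. Here few unique reads stand behind the ratios.

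*Rps7*, also a gene of Diamond–Blackfan anaemia in humans (ENSMUSG00000061477, chromosome 12, 28630847 to 28635953), had 4311, 5248, 5574 and 2558 total reads, with the library with both cytokines far below the others. Its unique reads were 777, 756, 918 and 784, without such a fall, and its spliced reads were 4095, 4966, 5282 and 2374. Both over none was 0.567 (0.540 to 0.596) in total reads and 0.966 (0.874 to 1.07) in unique reads, and 81.7% of its reads were not unique. The lower level thus lay in reads that also fit elsewhere. Where those reads were placed was not tested.

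**Figure D4:**
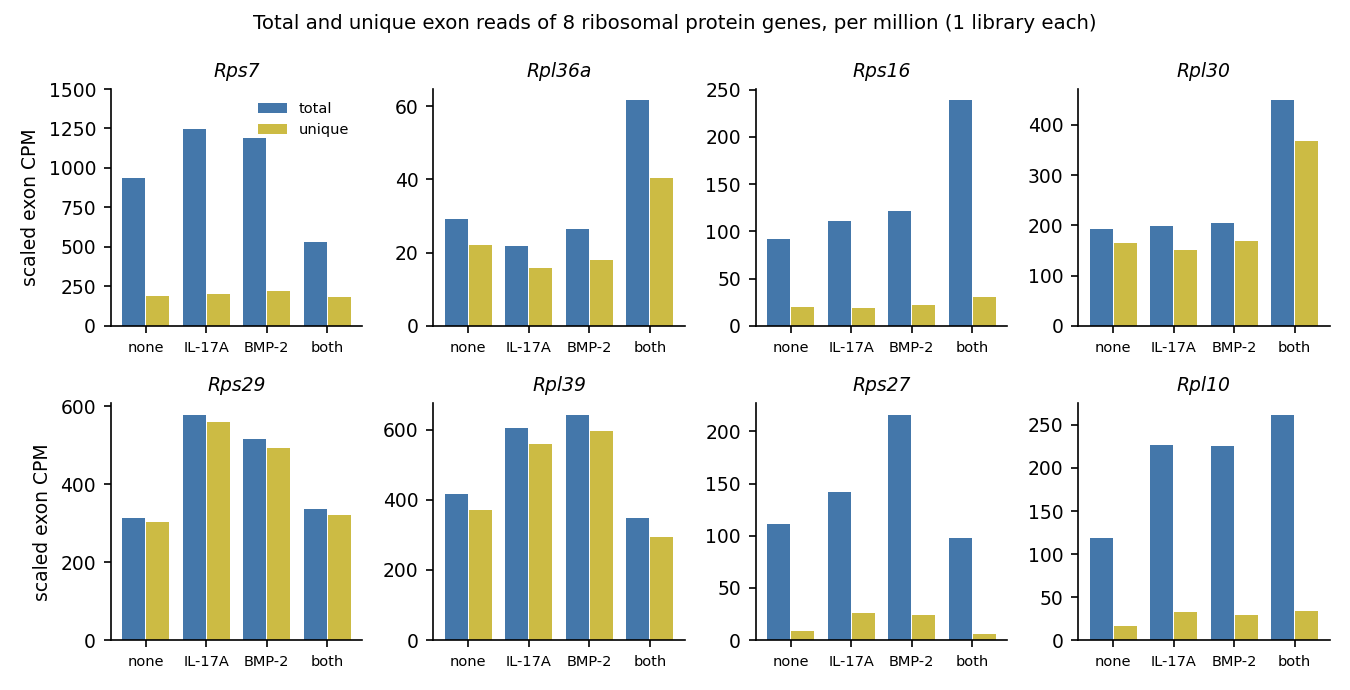
Scaled exon CPM (vertical axes, each from 0) of 8 ribosomal protein genes in the 4 conditions, 1 library each, as total reads relative to all exon reads and unique reads relative to unique exon reads, both after TMM scaling. In *Rps7* total reads fall with both cytokines and unique reads do not, with ratios over none of 0.567 and 0.966, while in *Rpl30* both are highest there, with ratios of 2.33 and 2.22.

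Other genes were among the lowest in 1 or more comparisons. *Rpl4*, whose loop lines the exit tunnel, had 5551, 5914, 5110 and 4622 reads, nearly all unique, and was 0.796 times as high with both cytokines as without (0.765 to 0.828). *Rpl12*, at the base of the stalk, had 695, 793, 666 and 585 total and 190, 186, 148 and 105 unique reads, with 0.804 (0.719 to 0.899) in total and 0.529 in unique reads for both over none. The opposite gene *Lrsam1*, which overlaps *Rpl12*, had 27, 40, 0 and 116 reads, and its part in the result was not tested. With IL-17A alone, *Rpl34* was at 0.778 (0.720 to 0.841), *Rps12* at 0.786 (0.603 to 1.02) and *Rpl24*, mutated in the belly spot and tail mouse, at 0.812 (0.724 to 0.910). In unique reads *Rpl34* was at 0.796 (0.731 to 0.866), and *Rpl24* at 0.888 (0.534 to 1.47) was within counting error. With BMP-2 alone the lowest were *Rps12* at 0.750 (0.578 to 0.972), *Rpl7l1* at 0.828, *Rpl7* at 0.869 and the X-linked *Rps4x* at 0.883. In unique reads *Rpl7l1* was at 0.878 (0.752 to 1.03), within counting error, *Rpl7* at 0.932 (0.878 to 0.990) and *Rps4x* at 0.878 (0.824 to 0.936).

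Paralogues followed their partners only in part. *Rpl39l*, known from testis, had 70, 109, 74 and 106 reads, all unique, with ratios over none of 1.70 (1.25 to 2.32) with IL-17A, 1.04 (0.738 to 1.46) with BMP-2 and 1.45 (1.06 to 1.99) with both. Its partner *Rpl39* had, as above, its highest reads with BMP-2 and its lowest with both cytokines. *Rps27l*, a p53 target, had 1127, 987, 1271 and 1335 reads and a ratio of 1.13 (1.04 to 1.23) for both over none, where *Rps27* was at 0.883.

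*Rpl22l1* had 318, 309, 390 and 316 reads and *Rpl22*, which in mice represses it, had 610, 576, 652 and 700. With both cytokines over none their ratios were 0.950 (0.810 to 1.11) and 1.10 (0.982 to 1.22), both within counting error. *Rpl7l1* had 800, 816, 675 and 996 reads and *Rpl7* had 2987, 2813, 2645 and 3215. Both members of that pair were lowest with BMP-2 alone. *Rpl3*, partner of the unread *Rpl3l*, had 3902, 3792, 4208 and 4312 reads.

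The ratio of IL-17A over no cytokine and that of both over BMP-2 share no library and give the effect of IL-17A in the absence and presence of BMP-2. Of the 38 genes higher in each, 16 were higher in both (19.8% of the 81, against 11.6% of all 11352 genes and 14.2% of those with at least 500 reads), among them *Rpl10*, *Rps16*, *Rplp0*, *Rpsa*, *Rpl8* and *Rps9*. *Rpl37a* was lower in both, as were 11.4% of all genes. In opposite directions beyond counting error lay 17 genes (21.0%), close to the 17.1% of all genes and the 19.9% of those with at least 500 reads. Of these, 11 were higher without and lower with BMP-2, against 8.77% of all genes, and 6 the reverse, against 8.28%. Opposite directions were thus about as frequent in the ribosomal protein genes as in all. Among the 11 were *Rpl12*, *Rpl13a*, *Rpl28*, *Rpl32*, *Rpl39*, *Rpl4*, *Rps13*, *Rps27*, *Rps29* and *Rps7*, and the 6 were *Rpl14*, *Rpl24*, *Rpl34*, *Rpl36a*, *Rpl7a* and *Rps27a*. In unique reads 7 of these 17 were opposite too, namely *Rpl13a*, *Rpl14*, *Rpl39*, *Rpl4*, *Rps13*, *Rps27* and *Rps29*. How many of all genes were opposite in both kinds of reads was not computed.

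For BMP-2, the ratio over none and that of both over IL-17A likewise share no library. Of 45 genes higher with BMP-2 over none and 51 higher with both over IL-17A, 32 were higher in both (39.5%, against 9.76% of all genes and 14.3% of those with at least 500 reads), among them *Rpl10*, *Rps16*, *Rplp0*, *Rps24* and *Rps25*. *Rpl4* was lower in both, as were 11.2% of all genes. Opposite directions were found for 8 genes (9.88%), against 18.3% of all. Higher and then lower were 7 genes, against 9.54% of all (among them *Rpl21*, *Rpl38*, *Rpl39*, *Rps27*, *Rps29* and *Rps7*), and *Rps23* was the reverse, against 8.79%. Whether the effects of the cytokines differ between the states cannot be tested with 1 library per condition.

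**Figure D5:**
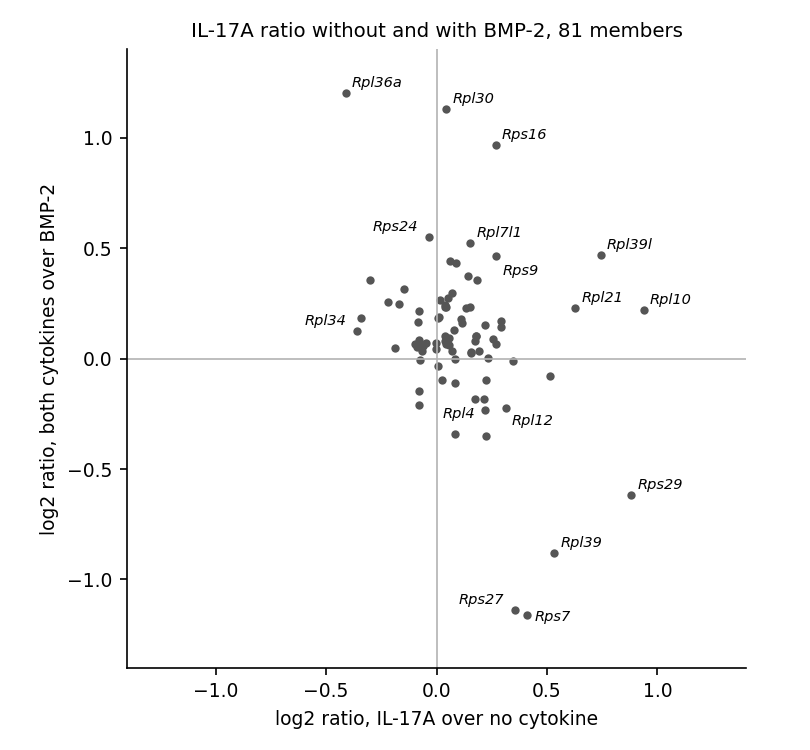
Log2 ratio of both cytokines over BMP-2 (vertical axis) against that of IL-17A alone over none (horizontal axis), 1 point for each of 81 ribosomal protein genes, with lines at 0. *Rps7*, *Rps27*, *Rpl39* and *Rps29* lie at the lower right, higher with IL-17A alone and lower when it was added to BMP-2, and *Rpl36a* lies at the upper left.

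In a model over all 4 libraries with IL-17A and BMP-2 as additive terms, no ribosomal protein gene passed for either cytokine. For IL-17A, edgeR's quasi-likelihood test passed 1 of 11352 genes (0.00881%) and 0 of the 81, with 623 of all genes and 0 of the 81 at an unadjusted p under 0.05 and a lowest adjusted p = 0.907. For BMP-2 it passed 0 genes (0%), with 412 of all genes and 3 of the 81 at an unadjusted p under 0.05 (among them *Rps16* and *Rpl28*) and a lowest adjusted p = 0.987 in the same edgeR test. DESeq2 passed 49 and 9 genes in all, and 0 of the 81 for each cytokine. The 1 degree of freedom left in the model is how far the libraries depart from additivity, which is no spread between replicates.

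Genes that share function with the ribosomal protein genes were counted as lists, chosen with results of these data known. The 4 measured ribosomal proteins with other names (among them *Fau*, made as a fusion with a ubiquitin-like protein, *Gnb2l1*, which encodes Rack1, and *Rpl36al*) had a log2 median of 0.34 for both cytokines over none, with 3 higher and 0 lower. *Fau* was 1.57-fold higher (1.42 to 1.73). Their median thus lay above 0, as that of the 81 did, but it rests on 4 genes.

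Of 21 elongation factors and other genes known for TOP mRNAs, 13 were higher and 4 lower with both over none, with a log2 median of 0.20. With IL-17A it was 5 and 4, and with BMP-2 5 and 6. This list includes the initiation factor genes *Eif3e*, *Eif3f*, *Eif3h*, *Eif3k*, *Eif3l*, *Eif3m*, *Eif4b*, *Eif2s3x* and *Eif4a2*. *Pabpc1*, the poly(A)-binding protein gene, had 586, 890, 907 and 1183 reads and a ratio of 1.93 (1.75 to 2.13) for both over none. *Eef1a1*, the most abundant of them, was at 0.889 (0.866 to 0.914), and *Eef1g* at 0.632 (0.608 to 0.658), although unique reads of *Eef1g* were 1688, 1693, 1585 and 1636. As in *Rps7*, the lower total of *Eef1g* was not matched in its unique reads.

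Of 24 initiation factor genes outside that list, 9 were higher and 7 lower with both cytokines over none, and their log2 median was −0.01. They are thus only a part of the initiation factor genes measured. Of 59 genes of ribosome assembly, 27 were higher and 9 lower, with a log2 median of 0.19; with IL-17A alone it was 26 and 9, and with BMP-2 alone 19 and 22. *Ncl*, which encodes nucleolin, was at 1.22 (1.15 to 1.31) and *Ddx56*, a nucleolar helicase gene, at 2.15 (1.88 to 2.45) for both over none. Genes of RNA polymerase I, which makes the large ribosomal RNAs, and of its transcription factors (among them *Ubtf* and *Taf1b*) numbered 15. With both over none, 5 were higher and 5 lower, with a log2 median of −0.14. Of 20 genes of mTOR and MYC control, 6 were higher and 8 lower, with a log2 median of −0.28. *Myc* itself had 687, 688, 389 and 545 reads, lowest with BMP-2 alone at 0.556 times the level without cytokine (0.489 to 0.630).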

How the data were processed

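Total RNA of the sorted and cultured cells was extracted, and the authors amplified full-length cDNA by PCR, read it on the Ion Proton platform and processed the reads with CLC Genomics Workbench. The build is mm10 per the labels. Its version and mapping settings, and how it placed reads with several matches, were not given in the sources used here. The deposited tables hold, for each gene, counts of total, unique and spliced exon reads, of gene and intron reads, and an RPKM value. That RPKM, as computed by the authors, followed exactly from exon reads, exon length and summed gene reads (largest relative error 0).

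The pseudogene clause of the name rule was read as names with "-ps". Comparisons took the genes with on average 10 or more exon reads, scaled by TMM in edgeR 4.0.16 under R 4.3.3. Ratios carry exact Clopper–Pearson 95% intervals from the split of a gene's reads between 2 libraries, computed with scipy 1.17.1, pandas 2.3.3 and numpy 2.4.6 under Python 3.11.15, and figures were drawn with matplotlib 3.10.9. IL-17A and BMP-2 were tested as additive terms in 1 model of the 4 libraries by edgeR's quasi-likelihood test, with Benjamini-Hochberg adjustment over all genes at 0.05, and again with DESeq2 1.42.0. The scripts were tested on simulated data. Start windows came from RefSeq (GRCm38.p6), recurring stretches from GENCODE M21 and overlaps from the gene positions deposited by the authors.

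The genes, lists, tests and alternatives were chosen with earlier results of these data known. Named are the 8 highest and 8 lowest genes by mean RPKM, the 4 highest and 4 lowest ratios of each comparison among genes averaging 50 or more reads, the 8 with the most reads not unique, paralogues with their partners, the stalk genes, *Rpsa*, *Rpl5*, *Rpl11*, *Rps6*, *Rps19*, *Rpl38*, genes whose direction differs between total and unique reads, and a few of each list. Genes given as examples of a group, and *Rpl13* with *Gm20388*, were chosen after their values were seen. Some genes that this rule takes are not reported here. Alternatives were other scalings (DESeq2 size factors, library totals, TMM without the 100 most abundant genes or without the ribosomal protein genes), unique reads, other filters, pseudocounts and folds, and, added after the data had been seen, spliced reads.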

Additional observations from a re-analysis of the deposited data

Results flagged for a closer look

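For 20 of the 81 measured ribosomal protein genes, the ratio of IL-17A or of BMP-2 lay on opposite sides of 1, beyond counting error, in the absence and in the presence of the other cytokine. That is 24.7%, against 25.6% of all 11352 genes tested and 28.7% of the 1859 with at least 500 reads, so the count is near that of genes at large. With 1 library per condition the difference was not tested. The departure from additivity, the log2 ratio of both cytokines over BMP-2 minus that of IL-17A over no cytokine, is negative where the library with both cytokines is lower than the single cytokines would add up to. It was farthest below 0 in *Rps7* at −1.57, *Rps29* at −1.50, *Rps27* at −1.49 and *Rpl39* at −1.41. Among the 20 genes, smaller values included those of *Rpl38* at −0.60, *Rpl12* at −0.54, *Rpl13a* at −0.45, *Rpl21* at −0.40, *Rpl4* at −0.40, *Rpl28* at −0.36, *Rps13* at −0.32 and *Rpl32* at −0.19. Of the 20, the departure was above 0 in *Rpl36a* at 1.61, *Rpl24* at 0.66, *Rpl34* at 0.49, *Rpl7a* at 0.47, *Rpl14* at 0.46, *Rps27a* at 0.42 and *Rps23* at 0.35. Genes outside the 20 also departed, among them *Rpl30* at 1.08, *Rps16* at 0.70 and *Rpl10* at −0.72. In unique reads the directions of IL-17A were also opposite for 7 genes and those of BMP-2 for 4, and *Rps7* was not among them. The share of all genes opposite in both kinds of reads was not computed.

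Reads unique to a gene also fell in the 261 rows named as ribosomal pseudogenes, which enter no comparison. Over exons and introns they numbered 120, 107, 129 and 117 in the order no cytokine, IL-17A, BMP-2 and the combination, above the 3 reads that a count of 0 allows. All reads assigned to these rows were 1003, 1023, 983 and 951.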

How the results depend on the processing

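Of 175 results recomputed under an alternative, 155 stayed the same, 12 counts crossed the limit of 1.5 times the main count, 8 shares moved and none reversed. A median counted as the same if it kept its sign and moved by less than the median half-width of a gene's interval. That limit was 0.0973 to 0.105 in log2, above the medians of 0.08 for IL-17A over none and 0.09 for both over BMP-2. The filters at averages of 1 and 50 reads kept the same 81 genes, so their ratios and counts could not differ. In unique reads the shares were 2.20%, 2.43%, 2.47% and 2.64% in the order no cytokine, IL-17A, BMP-2 and the combination, and without the 5 most abundant genes 2.66%, 2.94%, 3.00% and 3.22%. Genes lower beyond counting error with IL-17A numbered 6 by library totals and 6 in unique reads, in place of 10. At least 1.5-fold higher in unique reads were 9 for IL-17A, 13 for both over none and 10 for both over IL-17A, and 1 was lower for IL-17A. At a fold of 2, 0 were higher for IL-17A alone, 0 for BMP-2 alone and 3 for both over IL-17A, and 0 were lower for both over none, 2 for both over BMP-2 and 1 for both over IL-17A. The shares of all genes under these alternatives were not computed. The scalings moved the log2 median of all genes by at most 0.0445. Depth limits *Rps12*, *Rpl39l* and *Rpl36a*, whose lowest library held 101, 70 and 92 reads, and unique reads of genes with copies. No paired analysis was possible because each condition has 1 library, and for the same reason none could be left out.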
